A study of Arabidopsis thaliana with 28 samples.

Results

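In shoots and roots of Arabidopsis thaliana sampled after an exposure to UV-B radiation, 76 of 22746 probe sets were lower at both 12 h and 24 h than at 0.25 h in both tissues, and these 76 are described here. A probe set is the group of short probes on an array that reads 1 transcript or a few alike, and its signal is a brightness summary. The members were chosen by measured values, the changes in L, the mean over the 2 arrays of a group of log2(signal + 10), where 10 is a pseudocount that damps the noise of low signals. Control probe sets were left out, and the change in L from 0.25 h had to be -1 or lower, which is a 2-fold or larger difference, at both times and in both tissues. In shoots alone 262 probe sets met this condition, in roots alone 146 did, and 80 met it in both. A group of 4 genes among those 80, STZ, CML38, AT4G27280 and AT4G29780, were set aside, as was AT1G19020, whose root change at 24 h of -0.73 did not meet the condition. The opposite condition, a change of 1 or more at both times in both tissues, was met by 0 probe sets.

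Per the labels, Col-0 plants grown on Murashige and Skoog medium were treated at an age of 16 days, 3 h into the light of a 16 h day, with UV-B at 1.18 W/m2 for 15 min from Philips TL40W/12 lamps. The 14 groups are shoots and roots at 0.25, 0.5, 1, 3, 6, 12 and 24 h, each with 2 arrays. Every group had the exposure, and no array of untreated plants was analysed here, so UV-B and handling cannot be told apart. From 0.5 h to 12 h the hour of the day cannot be told apart from them either. By the labelled times, the 24 h arrays come at nearly the same hour of the day as those at 0.25 h. The part of the hour was not tested. The labels do not say whether the 2 samples of a group are separate cultures. The tests therefore measure only how far these samples differ, which may be technical spread, and the number of arrays limits the precision. Median signals per array lay between 36.7 and 39.0 in shoots and between 44.3 and 47.4 in roots, and replicate arrays correlated at r = 0.983 to 0.995 over probe sets on the log2 scale. The labelled tissues were checked on markers: the summed signal of 4 measured shoot markers of 12 listed (RCA, PSAN, LHCB4.1 and LHCB4.2, genes of photosynthesis) was 12150 to 23720 in shoots and 251.5 to 509.3 in roots. The summed signal of the 2 measured root markers of 12 listed (the expansins EXPA7 and EXPA18) was 80.5 to 216.5 in roots and 10.55 to 38.37 in shoots.

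Plants answer touch, wounding, cold, pathogen molecules and strong light with a burst of calcium in the cytosol. Calmodulin-like proteins bind that calcium, WRKY factors and their VQ-motif partners switch transcription, and a class of short-lived transcripts rises and is lost again. UV-B is perceived by a photoreceptor of its own, and strong UV-B also sets off this general stress signalling.

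The 76 members include several such genes, but how common such genes are among all probe sets was not counted. Of them, 39 matched exactly 1 gene in the annotation supplied, 0 matched several and 37 matched none, so 37 members are counted but not named. The named members hold the transcription factor WRKY53, known for its part in leaf senescence, and the VQ-motif proteins AT2G22880 and AT3G56880. They also hold the calmodulin-like proteins CML37 and CML23, the related calcium-binding proteins AT3G01830 and AT3G25600, and AT5G66650 of the mitochondrial calcium uniporter family. Another 2 are AT1G72920 and AT1G72940, which encode proteins with a TIR domain, a domain found in plant immune receptors, and which lie on the same chromosome with 1 gene between them. ATPMEPCRB encodes a pectin methylesterase, an enzyme that modifies the pectin of cell walls. AT3G48650 is annotated as a transcribed pseudogene. For most of the remaining named members, such as AT1G05575, AT1G32920 and AT1G19380, no role is given here. Each of the 76 exceeded the median of its array on 2 or more of the 28 arrays, as did 14806 of all 22746 probe sets. The rule favours high signals at 0.25 h, so this is no separate sign of expression.

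Because the 0.25 h, 12 h and 24 h arrays chose the members, changes from 0.25 h are given as a description, with no test. In shoots the median signal of the members was 258 at 0.25 h, 235.5 at 0.5 h, 233 at 1 h, 174.7 at 3 h, 77.16 at 6 h, 27.09 at 12 h and 31.99 at 24 h. In roots it was 188.2, 196.2, 85.43, 59.25, 50.52, 41.89 and 45.77 at the same times. The low levels thus came between 3 h and 12 h in shoots and between 0.5 h and 3 h in roots. The median change from 0.25 h in shoots was -0.21 at 0.5 h, -0.13 at 1 h, -0.37 at 3 h, -1.63 at 6 h, -2.73 at 12 h and -2.52 at 24 h. In roots the median change was -0.01, -0.93, -1.48, -1.49, -1.74 and -1.44. Over all probe sets the medians of these changes lay between -0.05 and 0.01. In whole-tissue samples such as these, fewer cells of a type and less RNA per cell cannot be told apart.

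**Figure D1:**
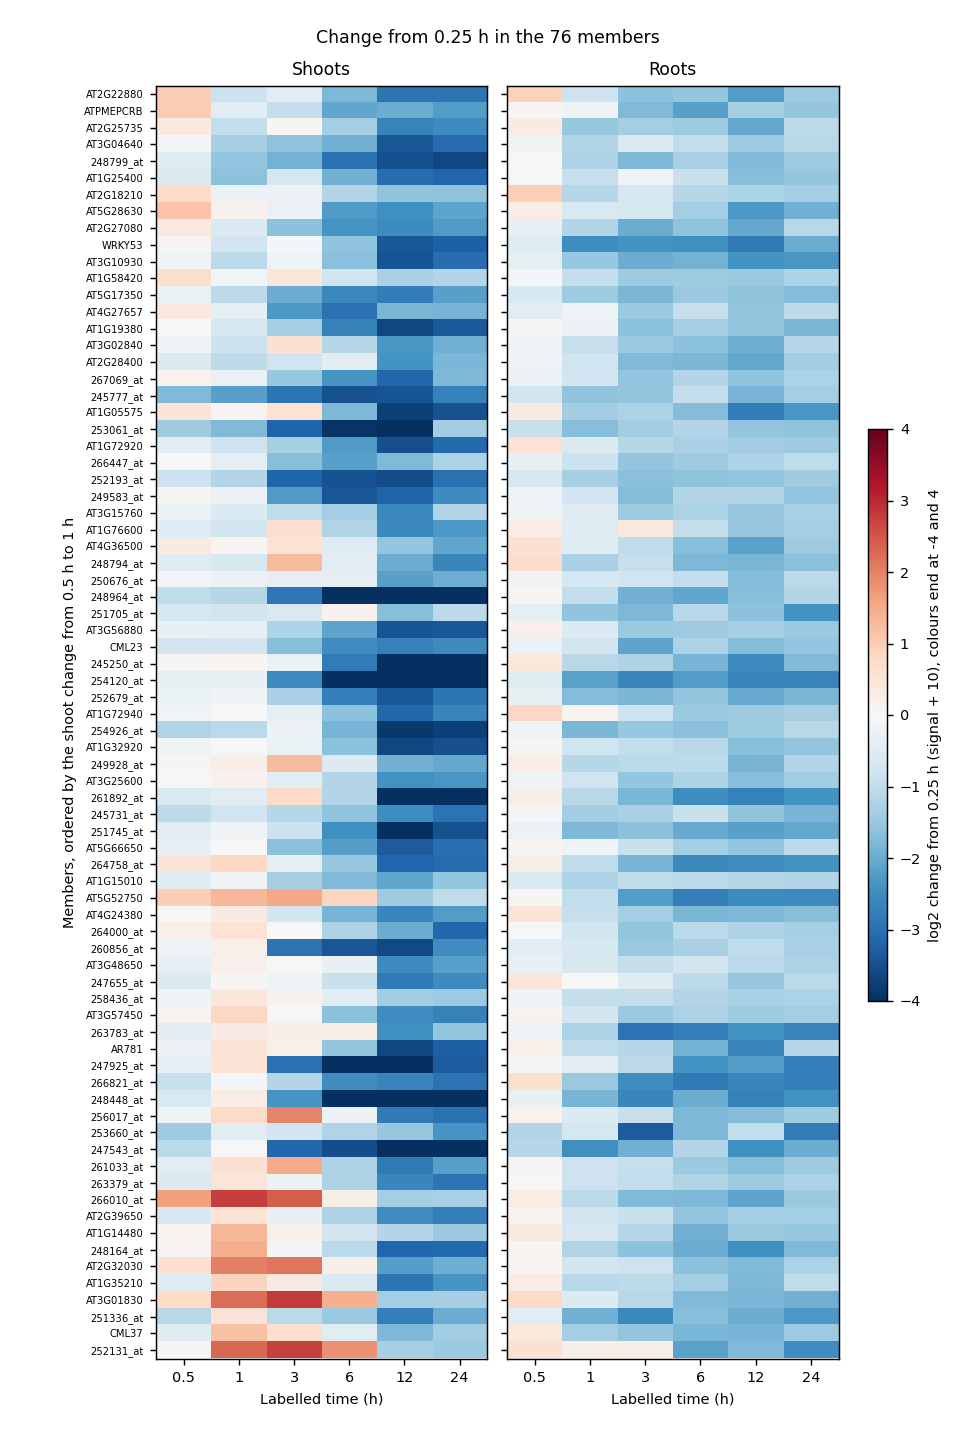
Change in log2(signal + 10) from 0.25 h for each of the 76 members (rows) at 6 later times (columns), shoots on the left and roots on the right, blue lower and red higher, with rows ordered by the shoot change from 0.5 h to 1 h. Shoots hold red cells at 1 h and 3 h, where 8 and 9 members lay 1 or more above 0.25 h, while no root cell reaches 1 above. The share of all probe sets 1 or more above was not counted. At 12 h and 24 h all members are at least 1 below in both tissues because this chose them.

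Members differed in when they had come down. In shoots 8 members were 1 or more below their 0.25 h level at 0.5 h, 11 at 1 h, 28 at 3 h and 56 at 6 h, against 0.374%, 1.51%, 3.14% and 5.86% of all probe sets. In roots the counts were 2, 35, 57 and 68, against 0.426%, 0.747%, 1.37% and 1.04%. Roots reached that depth at an earlier labelled time than shoots for 40 members, at the same time for 26 and at a later time for 10. The highest shoot level fell at 0.25 h for 27 members, at 0.5 h for 11, at 1 h for 24, at 3 h for 13 and at 6 h for 1. In roots the highest level fell at 0.25 h for 38 members, at 0.5 h for 37 and at 3 h for 1. Both the order of the tissues in reaching that depth and the times of the highest level use the 0.25 h arrays. Those arrays chose the members, and no share of all probe sets was counted for either. In shoots 14 members lay 1 or more above 0.25 h at some time, among them CML37, AT3G01830, AT2G32030, AT1G14480, AT5G52750, AT5G28630 and ATPMEPCRB, and in roots 0 did. The share of all probe sets that rose so far was not counted, so this contrast may not be particular to the members.

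At 24 h the shoot signal of a member was between 1.1% and 47.4% of its signal at 0.25 h, with a median of 13.0%, and the root signal between 2.54% and 47.9%, with a median of 30.5%. The 24 h level was above the 12 h level for 56 members in shoots (median difference 0.24, from -1.18 to 2.62, log2) and for 51 in roots (median 0.19, from -1.8 to 1.5). These arrays chose the members, and no share of all probe sets was counted. Median member signals at 12 h and 24 h were 27.09 and 31.99 in shoots, against array medians of 37.0 and 37.4. In roots they were 41.89 and 45.77, against 46.5 and 44.4. No recovery is read from these differences. The 3 members nearest the limit had a highest change of -1.022, -1.015 and -1.004, and the 3 probe sets just outside it had -0.996, -0.99 and -0.981, the last being AT5G28610. Of the genes set aside, STZ, a zinc-finger repressor of stress genes, had mean shoot signals of 1568 at 0.25 h, 1723 at 1 h, 190.1 at 6 h and 42.45 at 24 h. Its mean root signals were 1039, 382.8, 229.9 and 132.6 at those times. AT1G19020 had mean shoot signals of 530.0 at 0.25 h, 1860 at 3 h and 41.96 at 24 h.

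The arrays at 0.5, 1, 3 and 6 h took no part in the choice and show when each tissue moved. Transcripts chosen for low late levels have to come down at some time, so the timing is described here rather than the direction over the whole course. In roots the decline came at 1 h: WRKY53, the calcium sensor CML37, the VQ-motif protein AT2G22880 and most other members were lower than at 0.5 h. Altogether 64 of 76 members fell and 0 rose, while 2.82% of all probe sets were called lower and 1.98% higher. The median change was -0.90 among members and -0.02 over all probe sets, and 36 members fell at least 2-fold. Counts of called changes of at least 2-fold, here and below, were made for members only, with no share of all probe sets. In 74 members both arrays at 1 h lay below both arrays at 0.5 h, as they did in 28.1% of all probe sets. Changes are given in log2 units with their standard errors (SE), for 2 arrays against 2. Calls are those of limma's moderated test on log2(signal + 10), with p-values adjusted by the Benjamini-Hochberg method over all 22746 probe sets and called under 0.05. Among the 12 members not called, the change of AT5G66650 was -0.24 ± 0.23 log2 (adjusted p = 0.77, not called) and that of ATPMEPCRB was -0.20 ± 0.18 log2 (adjusted p = 0.718, not called).

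The largest root falls among named members were those of AT2G18210, WRKY53 and AT2G25735. AT2G18210 had root signals of 275 and 234 at 0.5 h and 50.3 and 53.5 at 1 h, and it fell by 2.09 ± 0.21 log2 (adjusted p = 1.55e-06). The fall of AT2G25735 went from 123 and 105 at 0.5 h to 25.1 and 22.8 at 1 h, a change of -1.86 ± 0.17 log2 (adjusted p = 4.02e-07). For both genes the 0.5 h and 1 h arrays do not overlap. AT1G05575, the named member with the lowest mean of the 4 changes that chose the set, had 730 and 698 at 0.5 h and 218 and 208 at 1 h, and it fell by 1.70 ± 0.15 log2 (adjusted p = 1.81e-07).

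Fewer members were called in the later root steps, with AT1G19380, CML23 and ATPMEPCRB among those that fell at 3 h. From 1 h to 3 h 34 members fell and 4 rose (5.99% of all probe sets fell and 5.65% rose), with a median change of -0.47, and 8 of the falls were at least 2-fold. ATPMEPCRB fell by 1.60 ± 0.18 log2 (adjusted p = 1.80e-06). AT1G19380 fell by 1.40 ± 0.16 log2 (adjusted p = 2.80e-06) and CML23 fell by 1.36 ± 0.24 log2 (adjusted p = 5.70e-04). AT1G76600 instead rose by 0.94 ± 0.14 log2 (adjusted p = 8.64e-05), from 156 and 142 at 1 h to 270 and 319 at 3 h. It then fell by 1.37 ± 0.14 log2 (adjusted p = 1.22e-06) at 6 h. From 3 h to 6 h 17 members fell and 9 rose (4.36% and 3.57% of all probe sets), with a median of -0.14, and 50 were not called. Leaving out single arrays moved these counts by more than 1.5 times: the 38 calls at 3 h became 25 without root replicate 2 at 1 h and 24 without root replicate 1 at 3 h, and the 26 calls at 6 h became 12 without root replicate 2 at 3 h and 13 without root replicate 1 at 6 h. The 4 rises at 3 h became 1 without root replicate 2 at 1 h or at 3 h and 2 without root replicate 1 at 3 h, and the 9 rises at 6 h became 5 without root replicate 1 or 2 at 3 h or replicate 1 at 6 h. The median at 6 h was -0.22 without root replicate 1 at 3 h and -0.04 without replicate 2 at 3 h, and with a pseudocount at the median signal it was -0.08, and -0.29 at 3 h. With a pseudocount of 41.6, the median of all signals, the change of CML23 in roots at 3 h was -0.89.

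Over the whole stretch from 0.5 h to 6 h, 69 of 76 members fell in roots and 0 rose (9.13% and 7.92% of all probe sets), with a median change of -1.54 against -0.03 over all probe sets. Of these falls 58 were at least 2-fold. In all 76 members both root arrays at 6 h lay below both at 0.5 h, as in 33.6% of all probe sets. Members chosen for low late levels had to come down. This net fall and its contrast to all probe sets thus follow at least in part from the choice. AT5G52750, whose protein has a heavy-metal-associated domain, fell by 2.80 ± 0.13 log2 (adjusted p = 3.54e-12). AT2G22880 fell by 2.48 ± 0.23 log2 (adjusted p = 1.03e-07) and AT4G24380, which encodes a serine hydrolase, fell by 2.37 ± 0.15 log2 (adjusted p = 2.56e-10). The largest of the 3 root steps downward was that to 1 h for 53 members, that to 3 h for 18 and that to 6 h for 5. The 3 steps differ in length, and no share of all probe sets was counted for the largest step. AT3G48650, AT4G27657 and AT1G15010 were the named members whose change over this stretch was not called, and that of AT3G48650 was -0.44 ± 0.19 log2 (adjusted p = 0.132, not called).

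Shoots behaved otherwise at 1 h. CML37, AT3G01830, AT1G35210, AT2G32030, AT1G14480 and AT2G39650 were higher than at 0.5 h, whereas AT2G22880, ATPMEPCRB, AT2G25735, AT3G04640 and AT1G25400 were lower. Of the 76 members 18 fell and 23 rose in shoots (7.22% and 6.73% of all probe sets), 35 were not called, and the median change was 0.11 against 0.03 over all probe sets. At least 2-fold, 6 fell and 13 rose. These values depended on the arrays at 0.5 h: without shoot replicate 1 at that time 10 fell and 25 rose with a median of 0.22, and without replicate 2 the median was -0.01. The larger rises of named members were those of CML37, AT3G01830 and AT1G35210, of which AT1G35210 had 75.9 and 58.5 at 0.5 h and 200 and 190 at 1 h. It rose by 1.42 ± 0.19 log2 (adjusted p = 1.71e-05). AT2G39650 rose by 1.19 ± 0.11 log2 (adjusted p = 3.05e-07) and AT1G14480, which encodes an ankyrin-repeat protein, rose by 1.23 ± 0.18 log2 (adjusted p = 5.07e-05). Among the falls, AT2G25735 fell by 1.36 ± 0.17 log2 (adjusted p = 7.83e-06). AT3G04640 fell by 1.29 ± 0.16 log2 (adjusted p = 7.83e-06) and AT1G25400 fell by 1.05 ± 0.18 log2 (adjusted p = 2.23e-04).

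From 1 h to 3 h in shoots 39 members fell and 16 rose (16.0% and 14.9% of all probe sets), with a median of -0.46, and 22 fell at least 2-fold. AT5G66650 fell by 1.67 ± 0.23 log2 (adjusted p = 7.89e-06). AT4G27657 fell by 1.92 ± 0.21 log2 (adjusted p = 2.33e-07) and AT1G15010 fell by 1.18 ± 0.18 log2 (adjusted p = 2.78e-05). Other members rose at 3 h. AT1G76600 had shoot signals of 245 and 301 at 1 h, 778 and 690 at 3 h, and 195 and 194 at 6 h, so that both 3 h arrays were above all arrays at 1 h and 6 h. It rose by 1.40 ± 0.14 log2 (adjusted p = 9.33e-08) at 3 h. AT3G02840, which encodes an ARM-repeat protein, rose by 1.45 ± 0.21 log2 (adjusted p = 1.64e-05), and AT2G25735, which had fallen at 1 h, rose by 1.03 ± 0.17 log2 (adjusted p = 5.57e-05). In roots AT1G76600 rose at 3 h as well. Under the larger pseudocount of 41.6, the change of AT4G27657 in shoots at 3 h was -1.24 and the change of AT1G15010 in shoots at 3 h was -0.73.

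Of the 3 shoot steps tested, that to 6 h had the largest median decline. Compared with 3 h, 64 of 76 members fell and 1 rose (12.0% and 13.4% of all probe sets), with a median of -1.09 against -0.01 over all probe sets, and 42 fell at least 2-fold. All 34 of the named members that were called fell. AT1G05575 had 461 and 407 at 3 h and 72.5 and 77.1 at 6 h, and it fell by 2.38 ± 0.15 log2 (adjusted p = 3.30e-10). AT5G28630 had 150 and 130 at 3 h and 28.2 and 26 at 6 h, and it fell by 2.01 ± 0.17 log2 (adjusted p = 2.61e-08). In both genes the arrays of 3 h and 6 h are far apart. In 71 members both 6 h arrays lay below both 3 h arrays, as in 30.5% of all probe sets. From 0.5 h to 6 h, 62 members fell and 4 rose in shoots (21.7% and 22.1% of all probe sets), with a median of -1.51, and 48 fell at least 2-fold. This net fall too follows at least in part from the choice of members. Of these 3 steps, the largest downward one in shoots was that to 1 h for 8 members, that to 3 h for 25 and that to 6 h for 43. Here too the steps differ in length, with the later ones longer, and no share of all probe sets was counted. The steps end at 6 h, and the median shoot signal fell further, from 77.16 at 6 h to 27.09 at 12 h. That later fall was not tested, because the 12 h arrays chose the members.

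**Figure D2:**
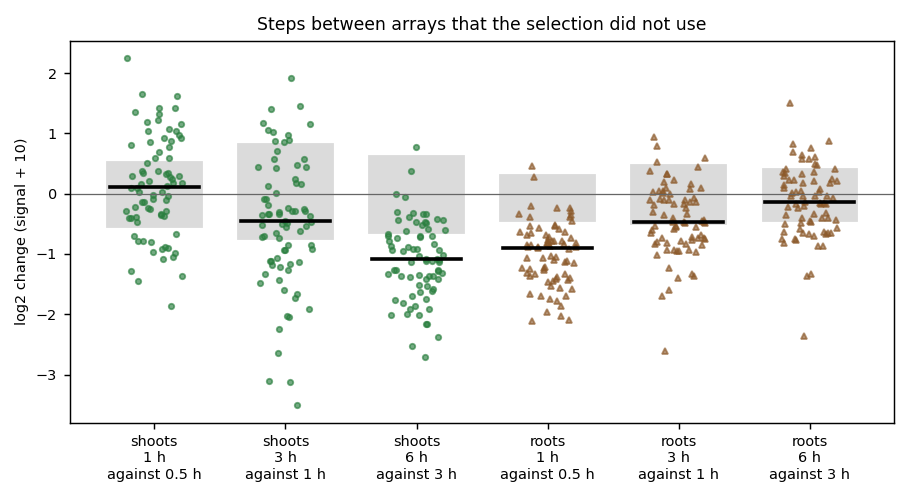
Each point is the fitted log2 change of 1 member over 1 step, in shoots (green circles) and roots (brown triangles); black bars are member medians and grey boxes span percentiles 5 to 95 of all probe sets. The member median is 0.11, -0.46 and -1.09 over the 3 shoot steps and -0.90, -0.47 and -0.14 over the 3 root steps.

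The tissue difference of the step from 0.5 h to 1 h was itself tested, in a comparison added after the data had been seen. The change was higher in shoots than in roots for 47 members and lower for 2, against 3.33% and 3.59% of all probe sets, and the median difference was 1.09 against 0.05 over all probe sets. In 20 members the level rose in shoots and fell in roots, as in 0.325% of all probe sets. In 15 it fell in both (0.602%), and in 29 it fell in roots and was not called in shoots (1.89%). The difference of CML37 was 3.43 ± 0.26 log2 (adjusted p = 3.20e-08). That of AT1G35210 was 2.82 ± 0.27 log2 (adjusted p = 4.87e-07) and that of AT3G01830 2.80 ± 0.25 log2 (adjusted p = 2.38e-07). AT1G14480 had a difference of 2.30 ± 0.26 log2 (adjusted p = 3.87e-06) and AR781 one of 2.03 ± 0.22 log2 (adjusted p = 2.82e-06). The 2 members whose change was lower in shoots were ATPMEPCRB, -1.24 ± 0.25 log2 (adjusted p = 0.00301), and AT4G27657, -1.06 ± 0.29 log2 (adjusted p = 0.0291). AT2G22880 fell in both tissues, and its difference was -0.12 ± 0.33 log2 (adjusted p = 0.886, not called). When 41.6 replaced 10 as the pseudocount, the tissue difference of CML37 at 1 h was 2.10. The tissue difference of ATPMEPCRB at 1 h was no longer called without a pseudocount (adjusted p = 0.0595). The tissue difference of AT4G27657 at 1 h was no longer called without a pseudocount, without shoot replicate 1 at 0.5 h, without root replicate 2 at 0.5 h, without shoot replicate 1 at 1 h, without shoot replicate 2 at 1 h, without root replicate 1 at 1 h and without root replicate 2 at 1 h (adjusted p from 0.0564 to 0.254).

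**Figure D3:**
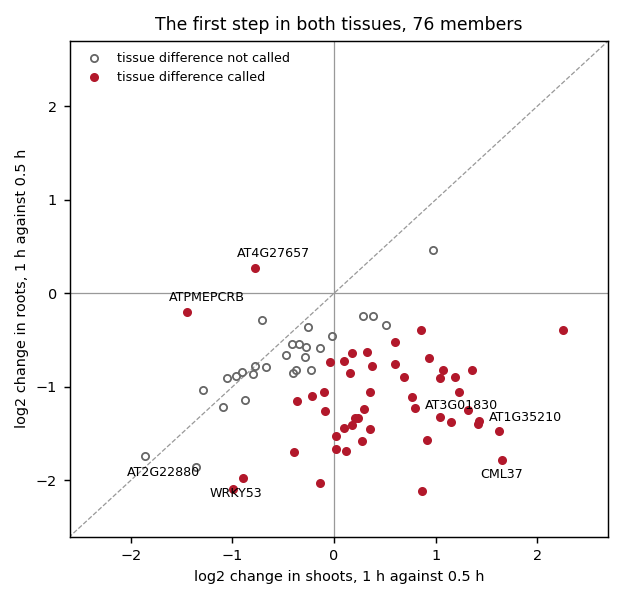
For each of the 76 members, the log2 change from 0.5 h to 1 h in shoots (horizontal) against that in roots (vertical); filled red points have a called tissue difference, open points do not, and the dashed line marks equal changes. Of the called members 47 lie below the line and 2 (ATPMEPCRB and AT4G27657) above it.

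Over the stretch from 0.5 h to 6 h most members fell in both tissues, and AT3G01830, AT5G52750 and CML37 were among those that fell in roots with no called fall in shoots. In 57 members the level fell in both tissues, as in 4.05% of all probe sets. Choosing members for low late levels in both tissues favours this count, so it is no separate support for a shared decline. In 8 it fell in roots with no call in shoots (3.52%), in 5 in shoots with no call in roots (16.0%), and 2 were called in neither (49.5%). The remaining 4 rose in shoots and fell in roots (1.56%), and the named one among them was AT3G01830, which rose by 0.62 ± 0.18 log2 (adjusted p = 0.00674) in shoots. The difference between tissues was called higher in shoots for 30 members and lower for 23 (17.7% and 15.9% of all probe sets). At least 2-fold, 17 were higher and 20 lower, so the balance turned among members. Whether it also turns over all probe sets was not counted. The median difference of 0.09 had no stable sign: it was -0.04 with quantile normalization within each tissue or a pseudocount at the median signal, -0.08 without shoot replicate 2 at 0.5 h and -0.02 without root replicate 1 at 0.5 h. It was 0.22 without a pseudocount, 0.28 without shoot replicate 1 at 0.5 h and 0.21 without root replicate 2 at 0.5 h. The highest of all members, an unnamed probe set, differed by 4.52 ± 0.27 log2 (adjusted p = 9.09e-11). At the upper end of the named members AT3G01830 differed by 3.20 ± 0.25 log2 (adjusted p = 4.40e-09). AT5G52750 differed by 2.66 ± 0.18 log2 (adjusted p = 5.20e-10) and CML37 by 2.33 ± 0.26 log2 (adjusted p = 4.50e-07). At the lower end of the named members AT4G27657 differed by -2.91 ± 0.29 log2 (adjusted p = 9.52e-08). AT5G28630 differed by -1.79 ± 0.24 log2 (adjusted p = 5.98e-06) and AT2G27080 by -1.46 ± 0.20 log2 (adjusted p = 7.93e-06). Across the 76 members the shoot and root changes from 0.5 h to 6 h had a Pearson r of -0.13 and a Spearman rho of -0.09. These are a description, since the members share arrays and were chosen together. At a pseudocount of 41.6, the tissue difference of AT3G01830 to 6 h was 1.87, the tissue difference of CML37 to 6 h was 1.24 and the tissue difference of AT2G27080 to 6 h was -0.83. The tissue difference of CML37 to 6 h was 3.50 without a pseudocount. The change of AT3G01830 in shoots at 6 h against 0.5 h was no longer called without a pseudocount, without shoot replicate 1 at 0.5 h and without shoot replicate 2 at 6 h (adjusted p from 0.0581 to 0.0983).

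Among the calcium-binding members, CML37 and AT3G01830 moved in opposite directions in the 2 tissues at 1 h. CML37, a calmodulin-like protein, had shoot signals of 43.3 and 35 at 0.25 h, 27.2 and 22.7 at 0.5 h and 112 and 87.9 at 1 h. From 3 h on they were 80 and 57.4 at 3 h, 22.2 and 32.4 at 6 h, 2.9 and 5.23 at 12 h and 7.59 and 9.7 at 24 h. Both shoot arrays at 1 h were above all others of the gene in shoots. Its root signals were 56 and 41.6 at 0.25 h, 73 and 63.7 at 0.5 h and 15.2 and 10.5 at 1 h. The pairs from 3 h on were 6.96 and 12.2 at 3 h, 6.57 and 6.42 at 6 h, 6.93 and 5.37 at 12 h and 11.6 and 11.2 at 24 h. In roots the arrays up to 0.5 h were high and all later ones low. Between 0.5 h and 1 h CML37 rose by 1.65 ± 0.18 log2 (adjusted p = 2.23e-06) in shoots and fell by 1.78 ± 0.18 log2 (adjusted p = 1.63e-06) in roots. It fell by 1.08 ± 0.18 log2 (adjusted p = 1.45e-04) in shoots between 3 h and 6 h. With a pseudocount of 41.6, the median of all signals, the change of CML37 in shoots at 1 h was 1.09, the change of CML37 in roots at 1 h was -1.01 and the change of CML37 in shoots at 6 h against 3 h was -0.68.

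AT3G01830, a calmodulin-like protein by its EF-hand family, followed a longer course. Its shoot signals were 46.5 and 32 at 0.25 h, 70.2 and 79.3 at 0.5 h and 244 and 195 at 1 h. Later pairs, from 3 h, were 369 and 291 at 3 h, 107 and 135 at 6 h, 6.14 and 12.4 at 12 h and 8.42 and 10.2 at 24 h. Shoot levels were high at 1 h, 3 h and 6 h and low at 12 h and 24 h. In roots the signals were 47.6 and 37.6 at 0.25 h, 87.4 and 76 at 0.5 h and 26.7 and 24.3 at 1 h. At 3 h and later they were 11.5 and 17.5 at 3 h, 5.77 and 4.9 at 6 h, 4.52 and 4.76 at 12 h and 3.15 and 4.41 at 24 h. Root levels were highest at 0.5 h and low from 1 h on. The gene rose by 1.43 ± 0.18 log2 (adjusted p = 8.19e-06) in shoots at 1 h and fell by 1.37 ± 0.18 log2 (adjusted p = 3.07e-05) in roots. Between 3 h and 6 h it fell by 1.37 ± 0.18 log2 (adjusted p = 5.94e-06) in shoots. Under the larger pseudocount of 41.6, the change of AT3G01830 in roots at 1 h was -0.88.

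CML23, another calmodulin-like protein, had no called change at 1 h in either tissue, with -0.02 ± 0.24 log2 (adjusted p = 0.977, not called) in shoots and -0.46 ± 0.24 log2 (adjusted p = 0.42, not called) in roots. Its root signals were 132 and 112 at 0.5 h, 90.4 and 81.2 at 1 h, 26.5 and 28.1 at 3 h, and 58 and 53.8 at 6 h, with the 3 h arrays lowest. AT3G25600 fell by 0.64 ± 0.10 log2 (adjusted p = 4.08e-04) in roots at 1 h, where its shoot change was 0.18 ± 0.10 log2 (adjusted p = 0.298, not called). It fell by 0.70 ± 0.10 log2 (adjusted p = 2.99e-05) in shoots between 3 h and 6 h. AT5G66650, of the calcium uniporter family, had shoot signals of 156 and 117 at 0.5 h, 153 and 181 at 1 h, 50.8 and 40.4 at 3 h, and 28.2 and 29.2 at 6 h. Both 3 h arrays were below both 1 h arrays in shoots. In roots it had 166 and 163 at 0.5 h, 140 and 136 at 1 h, 75.5 and 81.7 at 3 h, and 49.6 and 58.5 at 6 h, and over that stretch it fell by 1.45 ± 0.23 log2 (adjusted p = 1.38e-04).

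Among the regulators of transcription, WRKY53 had root signals of 218 and 219 at 0.25 h, 151 and 151 at 0.5 h and 32 and 30.4 at 1 h. The later values were 25.4 and 42.6 at 3 h, 29.5 and 34.5 at 6 h, 22.4 and 22 at 12 h and 45.9 and 50 at 24 h. All root arrays from 1 h on were below those at 0.25 h and 0.5 h. It fell by 1.97 ± 0.20 log2 (adjusted p = 1.16e-06) in roots at 1 h. In shoots its signals were 280 and 224 at 0.25 h, 322 and 230 at 0.5 h and 145 and 139 at 1 h. From 3 h on they were 275 and 207 at 3 h, 74 and 77.9 at 6 h, 13.6 and 16.2 at 12 h and 24.4 and 10.9 at 24 h. All shoot arrays up to 3 h were above all those from 6 h on, and between 3 h and 6 h WRKY53 fell by 1.53 ± 0.20 log2 (adjusted p = 4.85e-06). At 1 h it fell by 0.90 ± 0.20 log2 (adjusted p = 0.00317) in shoots, a smaller fall than in roots by a difference of 1.07 ± 0.28 log2 (adjusted p = 0.0207). When 41.6 replaced 10 as the pseudocount, the tissue difference of WRKY53 at 1 h was 0.62. The change of WRKY53 in shoots at 1 h was no longer called without shoot replicate 1 at 0.5 h (adjusted p = 0.0834). The tissue difference of WRKY53 at 1 h was no longer called without shoot replicate 2 at 0.5 h, without root replicate 1 at 0.5 h, without root replicate 2 at 0.5 h, without shoot replicate 2 at 1 h, without root replicate 1 at 1 h and without root replicate 2 at 1 h (adjusted p from 0.0523 to 0.0923).

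The VQ-motif protein AT2G22880 had shoot signals of 60.6 and 82.1 at 0.25 h, 172 and 132 at 0.5 h and 38.1 and 31 at 1 h. The pairs from 3 h on were 57.2 and 43.1 at 3 h, 5.94 and 23.5 at 6 h, 0.585 and 0.558 at 12 h and 0.897 and 0.68 at 24 h. Its root signals were 79.7 and 68.2 at 0.25 h, 153 and 142 at 0.5 h and 33.5 and 40.9 at 1 h. Later pairs, from 3 h, were 13.6 and 20.1 at 3 h, 17.3 and 19.1 at 6 h, 8.79 and 6.45 at 12 h and 19.7 and 21.8 at 24 h. In both tissues the 0.5 h arrays were the highest of the gene, and both 1 h arrays were below them. From 0.5 h to 1 h it fell by 1.86 ± 0.23 log2 (adjusted p = 7.69e-06) in shoots and fell by 1.74 ± 0.23 log2 (adjusted p = 3.69e-05) in roots. The other VQ-motif protein, AT3G56880, had shoot signals of 1094 and 1136 at 0.5 h, 991 and 1193 at 1 h, 623 and 526 at 3 h, and 308 and 312 at 6 h, and its change at 1 h was -0.04 ± 0.11 log2 (adjusted p = 0.897, not called). In shoots it fell by 0.91 ± 0.11 log2 (adjusted p = 7.65e-07) at 3 h and fell by 0.86 ± 0.11 log2 (adjusted p = 3.07e-06) at 6 h. Its root changes were -0.73 ± 0.11 log2 (adjusted p = 1.23e-04) at 1 h and -0.94 ± 0.11 log2 (adjusted p = 2.58e-06) at 3 h.

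The neighbouring TIR-domain genes AT1G72920 and AT1G72940 fell in both tissues between 0.5 h and 6 h. AT1G72920 had shoot signals of 411 and 409 at 0.25 h, 326 and 267 at 0.5 h and 259 and 201 at 1 h. At 3 h and later they were 169 and 147 at 3 h, 75.1 and 80.6 at 6 h, 30.3 and 23.8 at 12 h and 39.9 and 37.6 at 24 h. Its shoot level was lower at each labelled time than at the one before until 12 h. In roots the signals were 56.7 and 47.7 at 0.25 h, 102 and 66.9 at 0.5 h and 30.4 and 33.4 at 1 h. The later values were 14.9 and 21.6 at 3 h, 16.1 and 14 at 6 h, 13.4 and 14 at 12 h and 12.3 and 13.9 at 24 h. AT1G72920 fell by 1.15 ± 0.16 log2 (adjusted p = 6.16e-05) in roots at 1 h, and in shoots it fell by 0.93 ± 0.16 log2 (adjusted p = 1.40e-04) between 3 h and 6 h. AT1G72940 had shoot signals of 605 and 532 at 0.5 h, 615 and 600 at 1 h, 492 and 464 at 3 h, and 186 and 196 at 6 h. Its root signals were 243 and 221 at 0.5 h, 139 and 136 at 1 h, 59 and 74 at 3 h, and 36.9 and 39.5 at 6 h. Between 3 h and 6 h AT1G72940 fell by 1.28 ± 0.10 log2 (adjusted p = 6.07e-09) in shoots. Over 0.5 h to 6 h it fell by 2.33 ± 0.10 log2 (adjusted p = 1.42e-12) in roots. At a pseudocount of 41.6, the change of AT1G72920 in roots at 1 h was -0.76.

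Of the members that encode enzymes, ATPMEPCRB had shoot signals of 75.7 and 82 at 0.25 h, 176 and 166 at 0.5 h and 54.5 and 58 at 1 h. From 3 h on they were 40.4 and 32 at 3 h, 7.51 and 15.4 at 6 h, 9.61 and 16 at 12 h and 6.26 and 12 at 24 h. Its 0.5 h arrays were the highest in shoots. Root signals were 164 and 117 at 0.25 h, 149 and 138 at 0.5 h and 121 and 125 at 1 h. The pairs from 3 h on were 31.3 and 36.4 at 3 h, 25.4 and 21.3 at 6 h, 46.9 and 50.7 at 12 h and 42.6 and 38.5 at 24 h. The root level was high through 1 h and lower from 3 h on. In shoots ATPMEPCRB fell by 1.45 ± 0.18 log2 (adjusted p = 6.82e-06) at 1 h and in roots it fell by 1.60 ± 0.18 log2 (adjusted p = 1.80e-06) at 3 h.

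AT2G32030, of the GNAT acetyltransferase family, had shoot signals of 75.2 and 76.8 at 0.25 h, 130 and 121 at 0.5 h and 318 and 358 at 1 h. Later pairs, from 3 h, were 413 and 334 at 3 h, 82.7 and 101 at 6 h, 7.83 and 9.77 at 12 h and 16.7 and 8.44 at 24 h. Its 1 h and 3 h arrays were the highest in shoots. In roots it had 131 and 109 at 0.25 h, 126 and 126 at 0.5 h and 66.6 and 67.7 at 1 h. At 3 h and later they were 65.7 and 60.8 at 3 h, 32.7 and 30.7 at 6 h, 29.1 and 27.1 at 12 h and 39.3 and 48.5 at 24 h. It rose by 1.36 ± 0.14 log2 (adjusted p = 1.08e-06) in shoots at 1 h and fell by 1.91 ± 0.14 log2 (adjusted p = 4.01e-09) in shoots between 3 h and 6 h. In roots it fell by 0.82 ± 0.14 log2 (adjusted p = 9.03e-04) at 1 h. AT4G24380, the serine hydrolase gene, fell by 1.45 ± 0.15 log2 (adjusted p = 1.40e-06) in roots at 1 h, and its shoot change then was 0.35 ± 0.15 log2 (adjusted p = 0.12, not called). In shoots it fell by 1.07 ± 0.15 log2 (adjusted p = 6.77e-06) at 3 h and fell by 1.12 ± 0.15 log2 (adjusted p = 7.07e-06) at 6 h.

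AT5G52750, the gene of the heavy-metal-associated domain protein, had shoot signals of 282 and 219 at 0.25 h, 549 and 459 at 0.5 h and 667 and 620 at 1 h. The later values were 806 and 658 at 3 h, 441 and 471 at 6 h, 82.9 and 90.6 at 12 h and 118 and 114 at 24 h. All shoot arrays from 0.5 h to 6 h were above those at 0.25 h and those from 12 h on. Its root signals were 208 and 214 at 0.25 h, 226 and 215 at 0.5 h and 97.8 and 103 at 1 h. From 3 h on they were 35.9 and 38.1 at 3 h, 23.2 and 23 at 6 h, 31.3 and 26.6 at 12 h and 33.5 and 23.3 at 24 h. It fell by 1.06 ± 0.13 log2 (adjusted p = 1.06e-05) in roots at 1 h and fell by 1.23 ± 0.13 log2 (adjusted p = 6.60e-07) at 3 h. Its shoot change from 0.5 h to 6 h was -0.14 ± 0.13 log2 (adjusted p = 0.429, not called). AT2G27080, of the late-embryogenesis-abundant hydroxyproline-rich family, changed in both tissues at 1 h, by -0.91 ± 0.14 log2 (adjusted p = 1.31e-04) in shoots and -0.84 ± 0.14 log2 (adjusted p = 7.67e-04) in roots. In shoots it also fell by 1.11 ± 0.14 log2 (adjusted p = 3.56e-06) at 3 h. AT3G02840 had shoot signals of 78.4 and 42.8 at 0.5 h, 35 and 30.9 at 1 h, 113 and 102 at 3 h, and 20.4 and 30.3 at 6 h, with both 3 h arrays highest, and it fell by 1.75 ± 0.21 log2 (adjusted p = 2.83e-06) at 6 h. With a pseudocount of 41.6, the median of all signals, the change of AT2G27080 in shoots at 3 h was -0.71 and the change of AT3G02840 in shoots at 6 h against 3 h was -1.16.

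**Figure D4:**
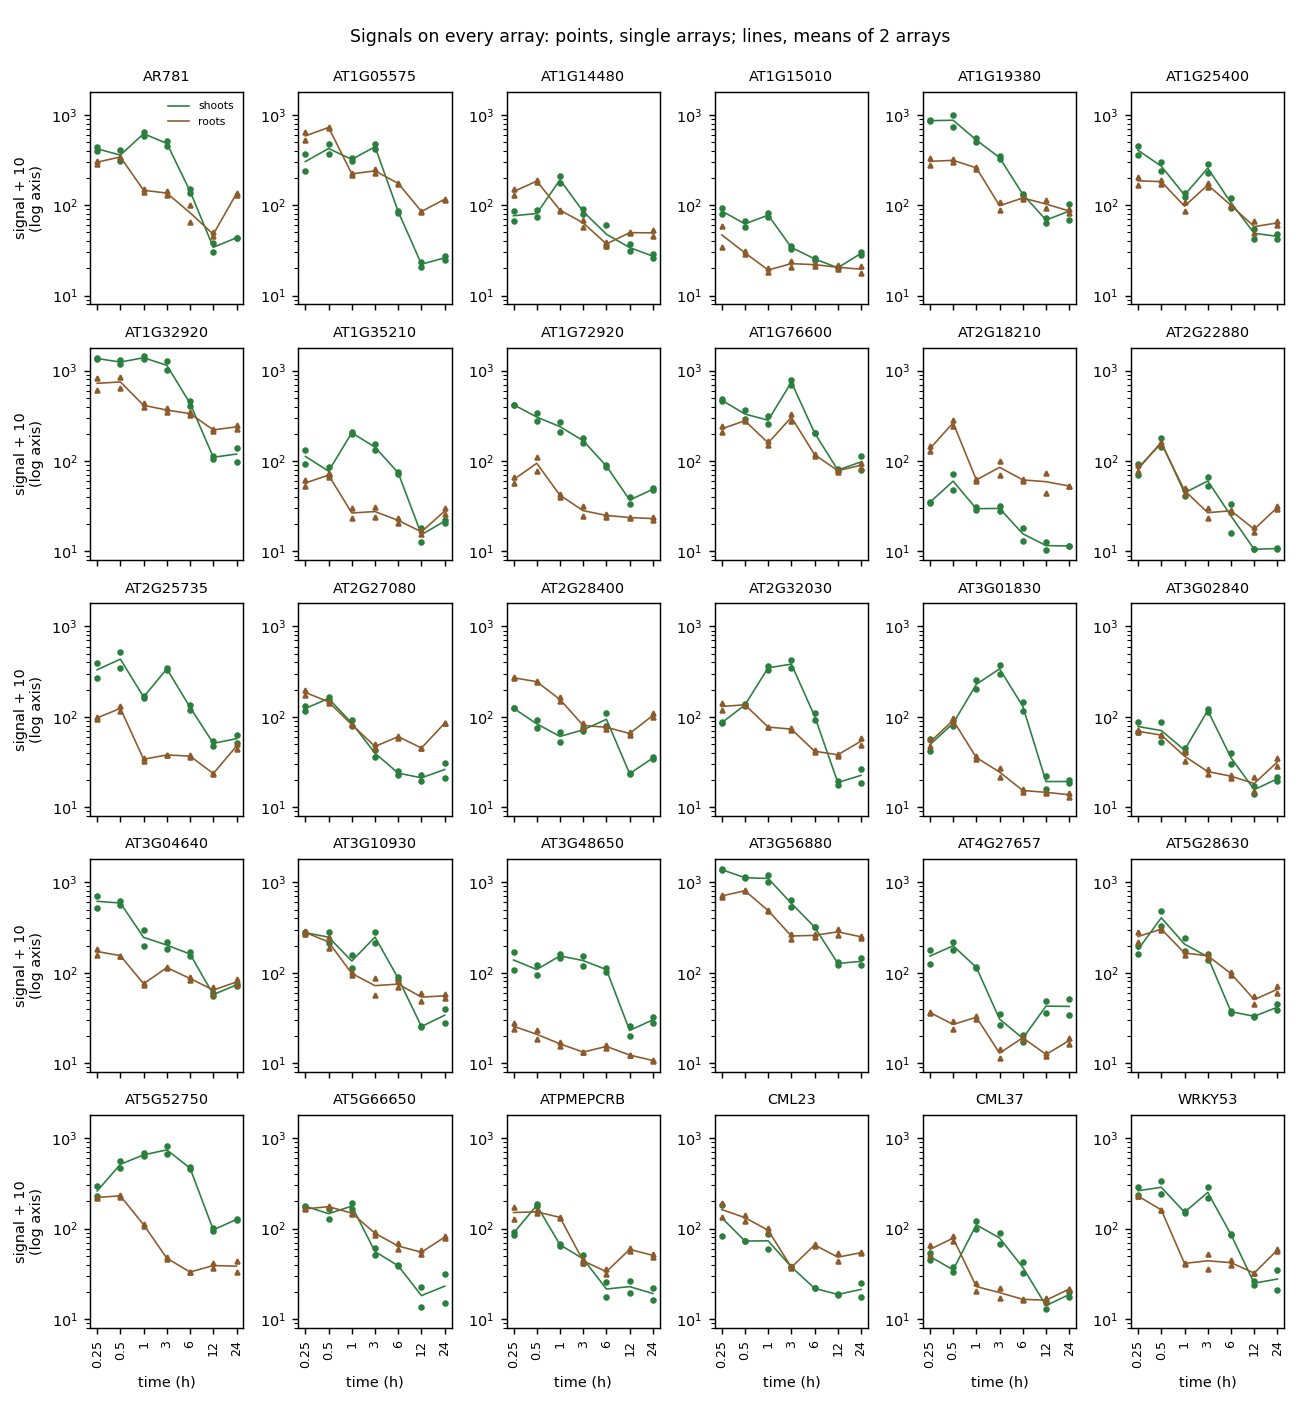
Signal plus 10 on a log axis against labelled time for 30 named members; each point is 1 array, green circles shoots and brown triangles roots, and lines join the means of 2 arrays. AT3G01830, AT2G32030 and CML37 rise in shoots at 1 h and fall in roots at 1 h, and AT2G22880 falls in both tissues at 1 h.

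Among members with no role given here, AT1G05575 had shoot signals of 230 and 357 at 0.25 h, 467 and 361 at 0.5 h and 320 and 302 at 1 h. The pairs from 3 h on were 461 and 407 at 3 h, 72.5 and 77.1 at 6 h, 10.8 and 13.7 at 12 h and 17.3 and 15 at 24 h. Its shoot level was high through 3 h, and all arrays from 6 h on were lower than all earlier ones. In roots its signals were 630 and 516 at 0.25 h, 730 and 698 at 0.5 h and 218 and 208 at 1 h. Later pairs, from 3 h, were 219 and 240 at 3 h, 167 and 161 at 6 h, 76.2 and 74.2 at 12 h and 104 and 108 at 24 h. AT3G10930 had shoot signals of 271 and 204 at 0.5 h, 147 and 102 at 1 h, 271 and 205 at 3 h, and 74.1 and 78.8 at 6 h, and it fell by 1.51 ± 0.21 log2 (adjusted p = 1.14e-05) between 3 h and 6 h. Its root change at 1 h was -1.14 ± 0.21 log2 (adjusted p = 0.00118). AR781 rose by 0.80 ± 0.16 log2 (adjusted p = 0.00109) in shoots at 1 h, where its signals went from 400 and 297 at 0.5 h to 573 and 642 at 1 h. It fell by 1.23 ± 0.16 log2 (adjusted p = 2.14e-05) in roots. Both shoot arrays of AR781 at 1 h were above both at 0.5 h.

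AT1G32920 had shoot signals of 1368 and 1335 at 0.25 h, 1307 and 1159 at 0.5 h and 1318 and 1438 at 1 h. At 3 h and later they were 1255 and 1014 at 3 h, 392 and 456 at 6 h, 95.9 and 104 at 12 h and 88.5 and 131 at 24 h. The arrays up to 3 h were high in shoots and those from 6 h on low, and the gene fell by 1.39 ± 0.16 log2 (adjusted p = 1.43e-06) between 3 h and 6 h. AT1G19380 had shoot signals of 994 and 727 at 0.5 h, 492 and 540 at 1 h, 339 and 313 at 3 h, and 121 and 123 at 6 h, and over that stretch it fell by 2.71 ± 0.16 log2 (adjusted p = 1.22e-11). In roots AT1G19380 fell by 1.40 ± 0.16 log2 (adjusted p = 2.80e-06) at 3 h. AT4G27657 had shoot signals of 116 and 169 at 0.25 h, 208 and 169 at 0.5 h and 104 and 106 at 1 h. The later values were 24.9 and 16.5 at 3 h, 7.32 and 10.3 at 6 h, 39.2 and 26.3 at 12 h and 23.7 and 41.2 at 24 h. It was low in shoots at 3 h and 6 h, and both arrays at 12 h and at 24 h were above both at 6 h. From 0.5 h to 6 h it fell by 3.40 ± 0.21 log2 (adjusted p = 1.64e-11) in shoots, and its root change was -0.48 ± 0.21 log2 (adjusted p = 0.121, not called). AT2G28400 fell by 1.68 ± 0.14 log2 (adjusted p = 1.64e-08) in roots over the same stretch, and its shoot change was 0.15 ± 0.14 log2 (adjusted p = 0.414, not called). Under the larger pseudocount of 41.6, the change of AT4G27657 in shoots at 6 h against 0.5 h was -2.19.

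Levels also differed between the tissues. Over the arrays at 0.5, 1, 3 and 6 h, 59 members were higher in shoots than in roots and 10 were lower, against 26.1% and 46.2% of all probe sets. With arrays centred on their medians 64 were higher and 6 lower. The median difference was 0.89 among members and -0.12 over all probe sets, and 1.12 among members after that centring. At 12 h and 24 h, which this comparison leaves out, median member signals were lower in shoots, 27.09 and 31.99, than in roots, 41.89 and 45.77. Array medians at those times were also lower in shoots, 37.0 and 37.4 against 46.5 and 44.4. At the upper end of the named members AT3G48650, the pseudogene, differed by 2.94 ± 0.10 log2 (adjusted p = 1.02e-17). AT5G52750 differed by 2.88 ± 0.06 log2 (adjusted p = 8.04e-21) and AT3G01830 by 2.36 ± 0.09 log2 (adjusted p = 1.54e-16). The lower end of the named members was held by AT2G18210, -1.68 ± 0.11 log2 (adjusted p = 2.46e-12). Next among them were CML23, -0.71 ± 0.12 log2 (adjusted p = 1.84e-05), and AT2G28400, -0.70 ± 0.07 log2 (adjusted p = 4.40e-09). The lowest of all members was an unnamed probe set, at -2.52 ± 0.16 log2 (adjusted p = 2.25e-11). WRKY53 was higher in shoots by 1.56 ± 0.10 log2 (adjusted p = 1.86e-12). When 41.6 replaced 10 as the pseudocount, the level difference of AT3G48650 was 1.71, the level difference of AT2G18210 was -1.05 and the level difference of CML23 was -0.45.

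Named and unnamed members split differently at 1 h in shoots, where 16 of 39 named members fell and 8 rose, while 2 of 37 unnamed members fell and 15 rose, against 7.22% and 6.73% of all probe sets. That split was not tested. In roots at 1 h 32 of 39 and 32 of 37 fell and 0 rose (2.82% and 1.98% of all probe sets). Between 3 h and 6 h in shoots 34 of 39 named and 30 of 37 unnamed members fell (12.0% of all probe sets). A pair of probe sets without a gene name was chosen after the values were seen. The unnamed probe set with the lowest mean of the 4 changes that chose the set, -3.74, had shoot signals of 881 and 949 at 0.25 h, 850 and 641 at 0.5 h and 728 and 765 at 1 h. From 3 h on they were 157 and 141 at 3 h, 29 and 31.3 at 6 h, 13.3 and 20.5 at 12 h and 22.2 and 35.1 at 24 h. It fell by 2.25 ± 0.16 log2 (adjusted p = 4.55e-10) in shoots at 3 h. Another unnamed probe set had shoot signals of 129 and 108 at 0.25 h, 120 and 124 at 0.5 h and 527 and 722 at 1 h. The pairs from 3 h on were 946 and 760 at 3 h, 418 and 470 at 6 h, 34.4 and 49.1 at 12 h and 43.5 and 29.5 at 24 h. It rose by 2.25 ± 0.19 log2 (adjusted p = 4.15e-08) in shoots at 1 h, and in roots it fell by 2.36 ± 0.19 log2 (adjusted p = 2.15e-08) between 3 h and 6 h.

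Lists of 111 genes of rapid stress signalling held 12 that were measured and named here. Of these WRKY53 and CML37 are members, and STZ and CML38 were set aside. The other 8 were WRKY6, WRKY22, AT2G28200, AT1G76640, OPCL1, PUB22, PUB23 and PUB24. In shoots 4 of these 8 fell and 2 rose at 1 h (7.22% and 6.73% of all probe sets), 1 fell and 4 rose at 3 h against 1 h (16.0% and 14.9%), and 7 fell and 0 rose at 6 h against 3 h (12.0% and 13.4%). In roots 2 fell and 0 rose at 1 h (2.82% and 1.98%), 3 fell and 0 rose at 3 h (5.99% and 5.65%), and 1 fell and 1 rose at 6 h (4.36% and 3.57%). PUB23, a ubiquitin ligase that restrains immune signalling, changed by -1.28 ± 0.19 log2 (adjusted p = 2.16e-05) in shoots between 3 h and 6 h. WRKY22, a factor of immune signalling, changed by -0.54 ± 0.14 log2 (adjusted p = 0.0228) in roots at 1 h and by -1.43 ± 0.14 log2 (adjusted p = 2.18e-08) in shoots from 0.5 h to 6 h. AT1G76640, a calmodulin-like gene, changed by -1.12 ± 0.11 log2 (adjusted p = 8.32e-07) in roots at 1 h, and its mean signal in shoots was under 1 at every time, so no course can be read there. WRKY6 changed by -1.96 ± 0.14 log2 (adjusted p = 6.14e-09) at 1 h and by 3.42 ± 0.14 log2 (adjusted p = 8.96e-14) at 3 h in shoots, and its 24 h level lay 0.72 above its level at 0.25 h.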

How the data were processed

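Values were the deposited signal intensities of 28 one-colour arrays on a linear scale, 1 per probe set, which the authors computed with MAS5 per the submitters' processing notes. For MAS5, neither version nor settings nor calls of presence are known here. The trimmed mean (2% off each end) was 99.22 to 99.45 for each array, so the deposited intensities carry a common scaling.

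Of 22810 probe sets, 64 controls were removed, and no filter on low values was applied. A linear model with 14 group means was fitted to log2(signal + 10) of the 28 arrays with limma 3.58.1, statmod 1.5.0 and R 4.3.3, and moderated by empirical Bayes (trend, robust), giving 14 residual and a median of 6.9 prior degrees of freedom. P-values were 2-sided, adjusted by the Benjamini-Hochberg method over 22746 probe sets within each comparison, and called under 0.05. On this scale a fold change understates that of low signals. Tests compared only groups of the 16 arrays at 0.5, 1, 3 and 6 h, since the 12 others chose the members. All 28 arrays entered the estimate of the spread. The script was tested on simulated data.

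The members and gene lists were chosen with earlier results of these data known. With 39 members matching exactly 1 gene, fewer than the 60 set as the limit, all could be named; every array is plotted for 30 of them and printed for those the results turn on. Of all probe sets 13513 matched 1 gene, 503 several and 8730 none. Of the 39, 37 matched a locus of the RefSeq table (TAIR10.1), and AT1G32920 and AT3G57450 matched by symbol only. Lists of AP2/ERF and MYB factors, kinases, mRNA decay, ethylene and membrane immunity held no gene measured and named here. Alternatives were other pseudocounts, normalizations, a filter, other fits, blocks, a minimum of 2-fold, and single arrays left out.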

Additional observations from a re-analysis of the deposited data

Results flagged for a closer look

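Several members differed between shoots and roots by a test of the difference itself, in limma on log2(signal + 10), with arrays that did not choose the members. For the change from 0.5 h to 1 h, a comparison added after the data had been seen, the shoot minus root difference was 3.43 for CML37, 2.82 for AT1G35210 and 2.80 for AT3G01830, whose levels rose in shoots and fell in roots. It was -1.24 for ATPMEPCRB and -1.06 for AT4G27657. For the change from 0.5 h to 6 h the difference was 3.20 for AT3G01830, 2.66 for AT5G52750 and 2.33 for CML37, which fell in roots with no called fall in shoots. It was -2.91 for AT4G27657, -1.79 for AT5G28630 and -1.46 for AT2G27080, whose change was lower in shoots. The summed signal of the measured shoot markers in shoots was 16900 and 18880 at 0.5 h, 17820 and 23720 at 1 h and 13380 and 12150 at 6 h, and that of the root markers in roots was 111.0 and 90.89, 84.94 and 80.5, and 152.3 and 132.9 at those times. Their part in these differences was not tested.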

How the results depend on the processing

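A minimum of 2-fold, which by construction leaves fewer calls, cut the members called in shoots from 41 to 19 at 1 h, from 55 to 29 at 3 h and from 65 to 42 at 6 h against 3 h. In roots it cut them from 64 to 36 at 1 h, from 38 to 8 at 3 h and from 26 to 4 at 6 h against 3 h, and for the level difference between tissues from 69 to 36. The set itself shrank from 76 to 37 members with the pseudocount at the median signal and to 25 with a change of -1.5 or lower, both contained in the 76, and it held 109 with a pseudocount of 1. Requiring each late array to lie at least 1 below both 0.25 h arrays left 55. Leaving out 1 array gave 33 to 42 calls in shoots at 1 h, 49 to 51 at 3 h, 59 to 62 at 6 h against 3 h and 59 to 66 at 6 h against 0.5 h. In roots it gave 53 to 59, 24 to 32, 12 to 20 and 67 to 69. For the tissue differences it gave 43 to 50 at 1 h, 48 to 52 at 6 h and 66 to 71 for the level, and 72 to 80 members met the rule. Every other total of calls or members stayed within 1.5 times, but counts by direction moved further. The minimum of 2-fold left 6 falls and 13 rises of 18 and 23 in shoots at 1 h, 22 and 7 of 39 and 16 at 3 h, 42 and 0 of 64 and 1 at 6 h against 3 h, and 48 and 1 of 62 and 4 at 6 h against 0.5 h. In roots it left 8 and 0 of 34 and 4 at 3 h and 3 and 1 of 17 and 9 at 6 h against 3 h. It left 17 higher and 20 lower of 30 and 23 tissue differences to 6 h, and 34 and 2 of 59 and 10 level differences. The 1 shoot rise at 6 h against 3 h became 2 with the pseudocount at the median signal, with the filter and without shoot replicate 1 at 6 h. Separate fits gave 1 root rise at 1 h in place of 0, and 25 falls and 14 rises in roots at 6 h against 3 h. The 2 tissue differences lower in shoots at 1 h became 0 without a pseudocount and 1 on leaving out any 1 of 6 arrays. Without single arrays the lowest counts were 10 falls in shoots at 1 h and, in roots at 6 h against 3 h, 7 falls and 5 rises. Of 879 values of the 52 largest named changes under the alternatives, 852 kept their direction and call, 27 lost the call and 0 turned. With the replicate number as a block the root calls at 1 h stayed at 64 and the shoot calls at 1 h became 40. Deviations of same-numbered arrays correlated weakly, from -0.116 to 0.0789 over the pairs of groups that were checked. The labels also give the numbers no meaning, so the numbers were not taken as pairs. Low signals limit the late times: at 12 h 47 members in shoots and 39 in roots lay below the median of both arrays, against 48.7% and 48.1% of all probe sets. The limit also holds at tested times. In shoots 27 members lay below both medians at 6 h, against 48.6% of all probe sets. In roots 32 did at 3 h and 33 at 6 h, against 48.8% and 48.6%.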
